A study of Saccharomyces cerevisiae with 4 samples.

Results

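The genes described here encode the peroxisomal route by which yeast breaks down fatty acids. They are 10 genes chosen by name (POX1, FOX2, POT1, FAA2, PXA1, PXA2, ECI1, SPS19, CTA1 and PEX11), out of 5449 Saccharomyces cerevisiae genes measured on the array. Each was represented by 1 probe set, and none of these probe sets carries the mark for binding several transcripts. Transcripts were measured on 4 Affymetrix arrays in BY4741, a haploid MATa yeast strain widely used in the laboratory, which carries deletions at HIS3, LEU2, MET15 and URA3. The 2 treated cultures received honokiol, a biphenol of magnolia bark, at 12 µg/mL for 2 h, and the 2 control cultures received the same volume of its solvent, ethanol. All cultures were grown in YPD, a rich glucose medium, and carried the same strain background and a labelled age of 8 h.

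In yeast, unlike in mammals, beta-oxidation of fatty acids takes place only in peroxisomes. A fatty acid enters through an ABC transporter or as a free acid, is activated to its acyl-CoA, and is then shortened by an oxidase, a multifunctional hydratase and dehydrogenase, and a thiolase. The oxidase makes hydrogen peroxide, which catalase removes, and unsaturated chains need extra enzymes. These genes are repressed in glucose and are induced by oleate through the Oaf1/Pip2 activator pair and Adr1.

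Levels are log2 of the deposited intensity, and a change is the honokiol mean minus the ethanol mean on that scale. Changes were tested with limma over all 5449 genes, with Benjamini-Hochberg adjustment and a threshold of 0.05; ± after a change is the standard error of that fit. All 10 genes lay above the background level of 4.37, the 95th percentile of probe sets for another species, in both groups. So did 5402 of all 5449 genes, so passing this level says little about a gene. POX1, CTA1 and POT1 were among the dimmest genes, at percentiles 2.5, 2.59 and 4.97 of mean level over all genes. In these cultures, fewer cells with a transcript and less of it in each cell cannot be told apart.

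The genes of the pathway did not move together. POT1, SPS19, PXA2 and ECI1 fell, CTA1 and PEX11 rose, and POX1, FOX2, PXA1 and FAA2 did not pass the test. These 4 falls and 2 rises stand beside 25.0% of all tested genes that fell and 23.9% that rose, 48.9% in all. The median change was -0.12 over the 10 genes and 0.01 over all genes, and the median absolute change was 0.41 against 0.25. The honokiol and ethanol arrays did not overlap for 7 of the 10 genes, 5 lower and 2 higher, against 80.2% of all genes. A change of at least 2-fold was seen for 1 of the 10 genes and for 4.94% of all genes.

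**Figure D1:**
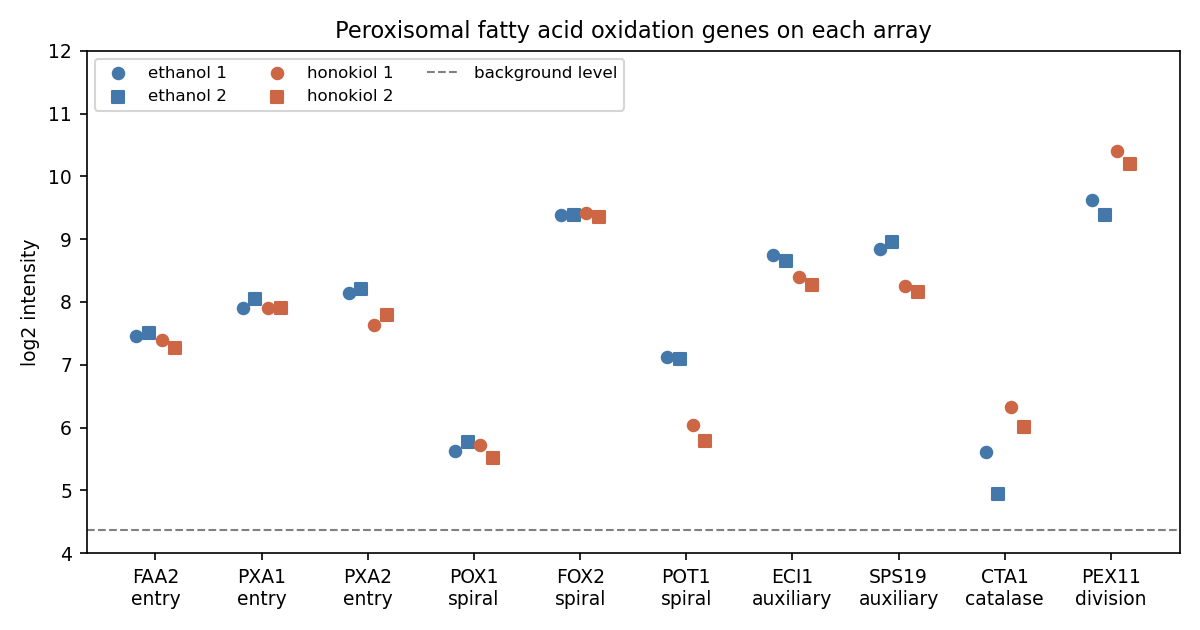
Log2 intensity of each of the 10 genes (x axis, with its role) on each of the 4 arrays, where colour gives the group and shape the replicate, and the dashed line is the background level of 4.37. The honokiol points of POT1 lie at 6.04 and 5.78 below ethanol points at 7.12 and 7.09, while those of FOX2 lie among the ethanol points; levels of different genes come from different probes and are not comparable.

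Among the genes for entry and activation, PXA1 and PXA2 encode the paired subunits of the peroxisomal ABC transporter that brings in long-chain acyl-CoA. PXA2 had log2 intensities of 7.63 and 7.80 with honokiol and 8.15 and 8.20 with ethanol. Both honokiol arrays lay below both controls, and PXA2 fell by 0.46 ± 0.08 (adjusted p = 0.0118). PXA1 had values of 7.91 and 7.91 with honokiol and 7.90 and 8.05 with ethanol, so its groups overlapped. Its change was -0.06 ± 0.07, with a 95% interval from -0.25 to 0.13 (adjusted p = 0.496). Whether both subunits changed unequally was not tested. The fall of PXA2 did not pass without honokiol replicate 1, or when the fit was adjusted for the 5'/3' signal ratio of the array's control transcripts (adjusted p = 0.0866 and 0.0553; 0.0045 to 0.0866 over the 13 alternatives that test against a difference of 0).

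FAA2 encodes the peroxisomal acyl-CoA synthetase, which activates medium-chain fatty acids inside the organelle. Its values were 7.40 and 7.26 with honokiol and 7.46 and 7.50 with ethanol. The honokiol arrays lay just below the controls, but the change of -0.15 ± 0.07 did not pass (95% interval -0.34 to 0.04, adjusted p = 0.146). It passed only after a renewed quantile normalization over the tested genes, with a change of -0.37 (adjusted p = 0.0143; 0.0143 to 0.57 over the same alternatives).

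The core enzymes act in turn on the same acyl chain. POX1, the acyl-CoA oxidase of the first step, had values of 5.72 and 5.52 with honokiol and 5.62 and 5.77 with ethanol. These groups overlapped, and the change was -0.08 ± 0.10 (95% interval -0.34 to 0.18, adjusted p = 0.533). After the renewed quantile normalization it was -0.53 (adjusted p = 0.0457; 0.0457 to 0.984 over the alternatives). FOX2, the multifunctional enzyme of the middle steps, had values of 9.41 and 9.36 with honokiol and 9.38 and 9.38 with ethanol. Its change was 0.00 ± 0.06, and the 95% interval of -0.15 to 0.16 bounds what these arrays allow (adjusted p = 0.963).

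POT1, the 3-ketoacyl-CoA thiolase that releases acetyl-CoA in the last step, changed most among the 10 genes. Its log2 intensities were 6.04 and 5.78 with honokiol and 7.12 and 7.09 with ethanol. The groups lay well apart, with means of 5.91 ± 0.18 (SD, n = 2) and 7.10 ± 0.02 (SD, n = 2). POT1 fell by 1.19 ± 0.10, so that ethanol was 2.29-fold above honokiol (adjusted p = 0.00223). It passed under all 14 alternatives, with a change between -1.55 and -1.06. The smaller changes of FOX2 and POX1 were not tested against that of POT1.

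Both enzymes for unsaturated chains fell. SPS19 encodes the peroxisomal dienoyl-CoA reductase and ECI1 the enoyl-CoA isomerase, which move or remove double bonds that block the core enzymes. SPS19 had values of 8.26 and 8.16 with honokiol and 8.85 and 8.96 with ethanol, and fell by 0.69 ± 0.07 (adjusted p = 0.00358). Both honokiol arrays lay below both controls, as they did for ECI1. ECI1 had values of 8.39 and 8.27 with honokiol and 8.74 and 8.66 with ethanol, and fell by 0.37 ± 0.07 (adjusted p = 0.0152). The fall of ECI1 did not pass without honokiol replicate 1, without honokiol replicate 2 or with all probe sets as features (adjusted p = 0.0714, 0.115 and 0.0512; 0.00696 to 0.115 over the alternatives).

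CTA1, catalase A of peroxisomes and mitochondria, rose. Its log2 intensities were 6.33 and 6.01 with honokiol and 5.61 and 4.94 with ethanol. Both honokiol arrays lay above both controls, and the control arrays lay 0.68 apart, the widest replicate gap among the 10 genes. The rise was 0.89 ± 0.25, or 1.85-fold, with a 95% interval from 0.24 to 1.54 (adjusted p = 0.0386). It was 0.55 without ethanol replicate 2, 0.45 after the renewed quantile normalization and 0.33 when adjusted for the 5'/3' ratio (adjusted p = 0.0285, 0.0302 and 0.129). It did not pass without honokiol replicate 1, without honokiol replicate 2 or with all probe sets as features (adjusted p = 0.184, 0.097 and 0.0863; 0.00201 to 0.184 over the alternatives). The 5'/3' log2 ratio was averaged over 7 yeast control transcripts. It was -1.177 and -1.224 with honokiol and -1.307 and -1.671 with ethanol, lowest on ethanol replicate 2. Both ethanol ratios lay below both honokiol ratios, so fits adjusted for the ratio cannot fully separate it from the treatment. Those fits also have fewer residual degrees of freedom than the fit reported. The other yeast catalase gene, CTT1 of the cytosol, was named with its value known and went the opposite way: its values were 10.06 and 9.91 with honokiol and 11.23 and 11.53 with ethanol, and it fell by 1.40 ± 0.12 (adjusted p = 0.00241).

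PEX11, a peroxisomal membrane protein that promotes elongation and division of the organelle, also rose. Its values were 10.41 and 10.19 with honokiol and 9.62 and 9.39 with ethanol, so the groups did not overlap. The rise was 0.80 ± 0.12, or 1.74-fold (adjusted p = 0.00738). It did not pass without honokiol replicate 1, when it was 0.68 (adjusted p = 0.0576; 0.000485 to 0.0576 over the alternatives).

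**Figure D2:**
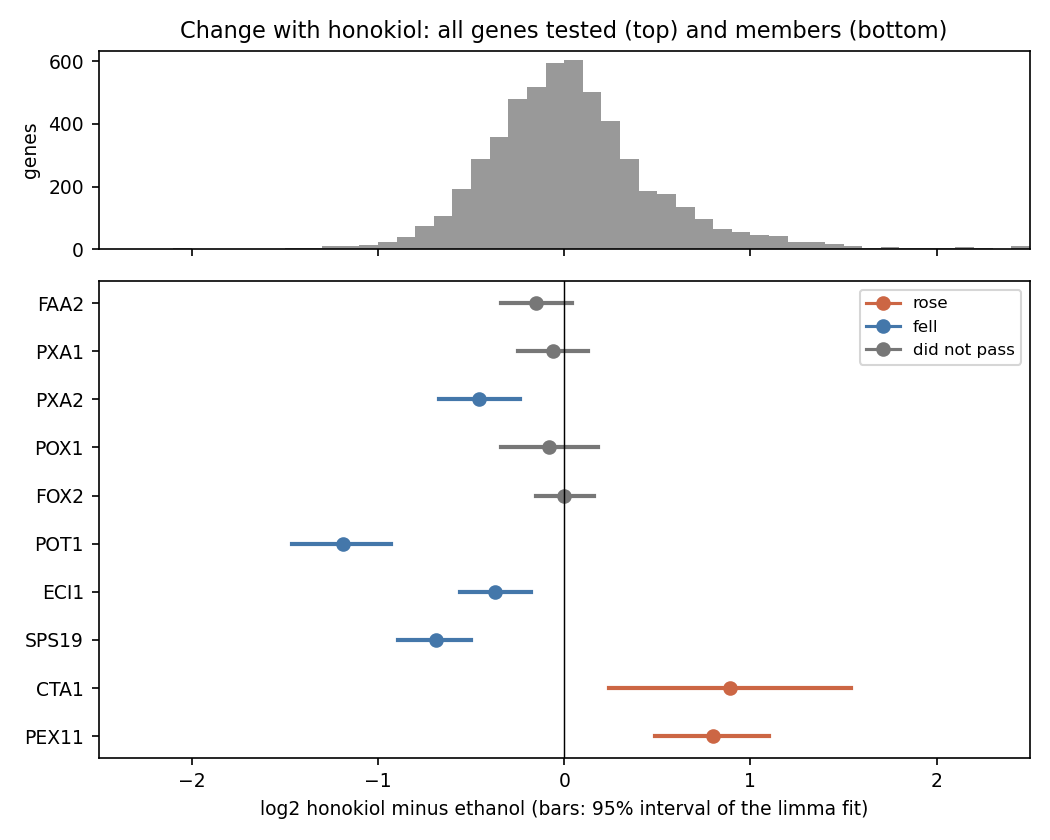
Top, number of genes by log2 change (honokiol minus ethanol) for all 5449 genes, with changes beyond the axis limits counted in the end bins. Bottom, the change of each of the 10 genes with its 95% interval from the limma fit, coloured by whether it rose, fell or did not pass; POT1 lies at -1.19 and CTA1 and PEX11 at 0.89 and 0.80, while the intervals of FAA2, PXA1, POX1 and FOX2 include no change.

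**Figure D3:**
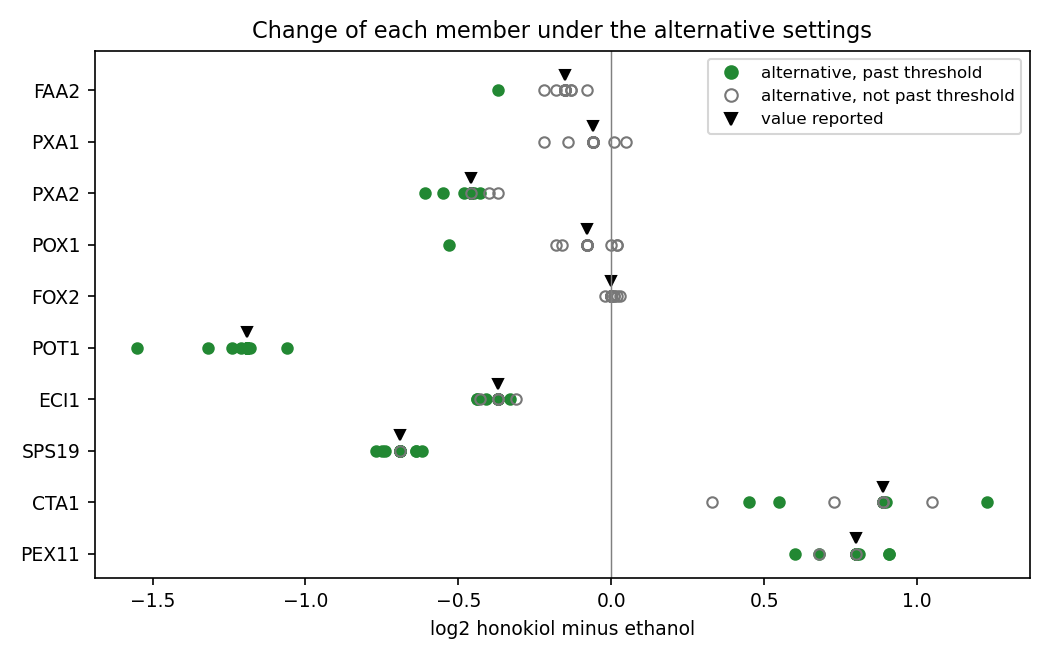
Log2 change of each of the 10 genes (honokiol minus ethanol) as reported (triangle) and under each of the 14 alternative settings (circles, filled where past the threshold). POT1 is past the threshold at every setting between -1.55 and -1.06, CTA1 runs from 0.33 to 1.23, and FOX2 stays between -0.02 and 0.03.

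Other genes that serve the same route were taken from lists of pathway genes. Of 9 genes for entry, accessory steps and cofactors, 5 fell and 1 rose, with a median change of -0.25. Over all genes, 25.0% fell and 23.9% rose. IDP3, the peroxisomal isocitrate dehydrogenase that supplies NADPH to the SPS19 reductase, had values of 6.84 and 6.91 with honokiol and 7.74 and 7.81 with ethanol. It fell by 0.90 ± 0.06 (adjusted p = 0.00164). TES1, the peroxisomal acyl-CoA thioesterase, fell by 0.46 ± 0.07 (adjusted p = 0.0082), a call lost without honokiol replicate 2 (adjusted p = 0.0723; 0.00189 to 0.0723 over the alternatives). DCI1, a paralog of ECI1, had values of 7.36 and 7.12 with honokiol and 7.25 and 6.73 with ethanol. These overlap, and its change was 0.25 ± 0.19 (adjusted p = 0.324), or -0.01 without ethanol replicate 2 and 0.51 without ethanol replicate 1 (adjusted p = 0.952 and 0.0144).

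The major acyl-CoA synthetases outside the peroxisome matrix went apart. FAA1 had values of 11.88 and 11.97 with honokiol and 12.66 and 12.71 with ethanol, and fell by 0.76 ± 0.07 (adjusted p = 0.00235). FAA4 had values of 11.34 and 11.38 with honokiol and 10.24 and 10.18 with ethanol, and rose 2.22-fold (log2 1.15 ± 0.06, adjusted p = 0.00117). Both kept their call under the 13 alternatives against a difference of 0.

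Acetyl units leave the peroxisome on carnitine or as intermediates of the glyoxylate cycle. Of 6 genes for this export 2 rose and 0 fell, against 23.9% and 25.0% of all genes, with a median change of 0.07. CIT2, the peroxisomal citrate synthase, had values of 13.42 and 13.43 with honokiol and 11.91 and 11.97 with ethanol, a rise of 1.48 ± 0.06 (adjusted p = 0.000818). CRC1, the mitochondrial carrier for acyl-carnitines, had values of 7.98 and 7.86 with honokiol and 7.16 and 6.76 with ethanol, and rose by 0.96 ± 0.14 (adjusted p = 0.00763). The CRC1 rise did not pass without honokiol replicate 1 or without honokiol replicate 2 (adjusted p = 0.0641 and 0.0535; 0.0006 to 0.0641 over the alternatives). AGP2, a plasma membrane protein needed for carnitine uptake, had a change of -0.36 ± 0.14, and the carnitine acetyltransferase YAT2 one of 0.17 ± 0.07 (adjusted p = 0.083 and 0.107). AGP2 passed with an intensity trend and robust prior in the variance model (adjusted p = 0.0298). It also passed when adjusted for the 5'/3' ratio (-0.57, adjusted p = 0.0499). The AGP2 change was -0.51 without ethanol replicate 2 and -0.21 without ethanol replicate 1. YAT2 was at -0.03 after the renewed quantile normalization.

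Of the 4 regulators of the oleate response 3 fell and 0 rose, against 25.0% and 23.9% of all genes. OAF1 and PIP2, which encode the paired activators that bind oleate response elements, fell by 0.30 ± 0.08 and 0.40 ± 0.07 (adjusted p = 0.0393 and 0.011). OAF1 had values of 9.61 and 9.59 with honokiol and 9.80 and 9.99 with ethanol, and PIP2 8.76 and 8.64 against 9.08 and 9.12. OAF3, a negative regulator of the response, fell by 0.27 ± 0.06 (adjusted p = 0.0209). ADR1, an activator of peroxisomal and ethanol-use genes, had values of 8.96 and 9.05 with honokiol and 8.51 and 8.93 with ethanol, a change of 0.29 ± 0.15 (adjusted p = 0.171). The 3 falls did not pass without honokiol replicate 1 or without honokiol replicate 2, and those of OAF1 and OAF3 also not when adjusted for the 5'/3' ratio or with all probe sets as features. Without ethanol replicate 2, the ADR1 change was 0.49 (adjusted p = 0.00659; 0.00659 to 0.434 over the alternatives) and that of OAF1 -0.20 (adjusted p = 0.0589; 0.00631 to 0.194). Adjusted for the 5'/3' ratio, the ADR1 change was 0.62 and that of OAF1 -0.15 (adjusted p = 0.00935 and 0.194), and without ethanol replicate 1 the ADR1 change was 0.08 (adjusted p = 0.41).

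Among 8 genes of glucose derepression 4 fell and 0 rose, against 25.0% and 23.9% of all genes. CAT8, an activator of gluconeogenic genes, had values of 7.40 and 7.36 with honokiol and 7.97 and 8.35 with ethanol, and fell by 0.78 ± 0.14 (adjusted p = 0.0112). SIP2 and GAL83, beta subunits of the Snf1 kinase, fell by 0.51 ± 0.08 and 0.39 ± 0.06 (adjusted p = 0.00831 and 0.00819). REG1, a regulatory subunit of the phosphatase that opposes Snf1, fell by 0.41 ± 0.10 (adjusted p = 0.0268). The calls of CAT8, GAL83 and REG1 were lost without either honokiol array in turn, and that of SIP2 without honokiol replicate 1. The CAT8 change was -0.49 when adjusted for the 5'/3' ratio, and that of REG1 -0.22 (adjusted p = 0.0187 and 0.109). REG1 also did not pass with all probe sets as features.

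Genes for building peroxisomes went both ways. Of 16 measured import peroxins 6 fell and 3 rose, against 25.0% and 23.9% of all genes, with a median change of -0.04. PEX18 and PEX21 encode paralogous partners of the receptor Pex7, which brings the POT1 thiolase into the peroxisome. PEX21 had values of 8.72 and 8.89 with honokiol and 7.28 and 6.79 with ethanol, and rose 3.43-fold (log2 1.78 ± 0.18, adjusted p = 0.00315). PEX18 had values of 6.27 and 6.10 with honokiol and 6.94 and 6.78 with ethanol, and fell by 0.67 ± 0.09 (adjusted p = 0.00623). Both honokiol arrays lay above both controls for PEX21 and below both for PEX18. PEX5, the receptor for C-terminal targeting signals, fell by 0.56 ± 0.08, and the docking protein PEX14 fell by 0.33 ± 0.07 (adjusted p = 0.00753 and 0.0186). Without honokiol replicate 2 the calls of PEX18, PEX5 and PEX14 were lost, and those of PEX5 and PEX14 also without honokiol replicate 1; the call of PEX21 was kept. PEX14 also did not pass when adjusted for the 5'/3' ratio or with all probe sets as features (adjusted p = 0.0769 and 0.0611; 0.00655 to 0.14 over the alternatives). The change of PEX18 was -1.02 after the renewed quantile normalization (adjusted p = 0.000574).

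Of 13 genes for the size, division and inheritance of peroxisomes, the group to which PEX11 belongs by function, 6 fell and 1 rose. These stand beside 25.0% of all genes that fell and 23.9% that rose, and the median change of the list was -0.24. INP2, the peroxisomal receptor for the myosin motor that carries peroxisomes into the bud, fell by 0.53 ± 0.08, and INP1, which keeps peroxisomes in the mother cell, fell by 0.40 ± 0.06 (adjusted p = 0.0088 and 0.00715). PEX30 and PEX29, membrane proteins that regulate peroxisome number and size, fell by 0.47 ± 0.06 and 0.43 ± 0.08 (adjusted p = 0.00462 and 0.012). These 4 calls were lost without either honokiol array in turn, and that of PEX29 also when adjusted for the 5'/3' ratio (adjusted p = 0.0528; 0.00265 to 0.0908 over the alternatives).

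In the opposite pathway, fatty acid synthesis, 3 of 8 genes fell and 2 rose, against 25.0% and 23.9% of all genes. The median change of this list was -0.01. FAS2 and FAS1, the subunits of fatty acid synthase, fell by 0.71 ± 0.08 and 0.46 ± 0.07 (adjusted p = 0.0039 and 0.00771). ACC1, acetyl-CoA carboxylase, fell by 0.23 ± 0.06 (adjusted p = 0.0344). OLE1, the desaturase that makes oleate and palmitoleate, had values of 11.99 and 11.70 with honokiol and 10.83 and 10.55 with ethanol, and rose 2.22-fold (log2 1.15 ± 0.14, adjusted p = 0.00472). The calls of FAS1 and ACC1 were lost without either honokiol array in turn, and that of ACC1 also without ethanol replicate 2, when adjusted for the 5'/3' ratio and with all probe sets as features.

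**Figure D4:**
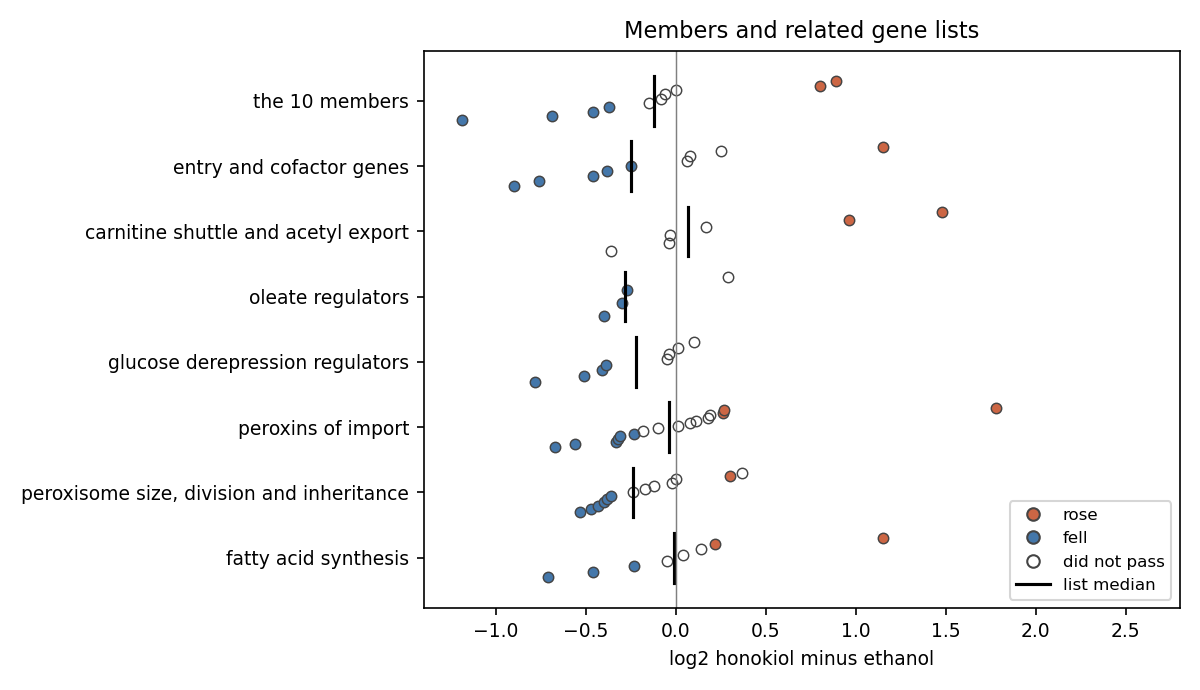
Log2 change (honokiol minus ethanol) of every measured gene in the 10 and in 7 related lists, 1 point per gene, filled where it rose or fell and open where it did not pass, with a bar at each list's median. The medians run from -0.28 for the oleate regulators to 0.07 for carnitine shuttle and acetyl export, and PEX21 at 1.78 is the highest point.

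The 5 genes whose profile over the 4 arrays, centred on each gene's mean, lay nearest to that of POT1 were AGA2, MRK1, YOR376W-A, BAR1 and FUI1, at Euclidean distances of 0.07 to 0.12. Their changes lay between -1.23 and -1.15, and closeness to the change of POT1 follows from how they were picked. AGA2 and BAR1 are also among the a cell markers counted below. The likeness is measured over these 4 arrays only.

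Checks of the samples bear on all of these values. Median log2 intensity was 9.57 or 9.59 on each array, and replicate arrays correlated over genes at 0.998 (honokiol) and 0.995 (ethanol). LEU2, MET17 (MET15) and URA3 lay between 2.73 and 4.56, near or below background. HIS3, which is only partly deleted in this strain, lay between 10.70 and 11.05. Of the alpha cell markers, the alpha-factor gene MF(ALPHA)1 lay below background at 3.27 to 3.83. The other alpha cell markers lay above it: MF(ALPHA)2 at 5.45 to 6.58, STE3 at 7.14 to 7.98 and SAG1 at 9.14 to 9.30. Of 6 markers of a cells 5 fell, against 25.0% of all genes, and the levels of these markers ran from 10.73 to 13.52. Of 4 alpha cell markers 1 rose (STE3), and of 5 sporulation markers 2 rose (IME2 and SPS1), against 23.9% of all genes. Levels of the alpha cell and sporulation markers ran up to 9.30. The part of these markers in the changes above was not tested.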

How the data were processed

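Transcripts were measured on 4 arrays, 2 per group, and were grouped by their titles, where the replicates are called biological. The authors deposited 1 intensity per probe set and array on a linear scale (2.58 to 22549), computed by RMA according to the submitters' notes on processing; no version of it is stated in the labels used. RMA corrects background, normalizes by quantiles and compresses changes of dim probe sets. Log2 was taken without a pseudocount. Of 10928 probe sets 5498 named 1 S. cerevisiae gene by way of the platform annotation and a RefSeq gene table (assembly R64); the brightest was kept per gene (5449 genes). Coordinates are left out, since the values come without a build.

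Both groups were compared in limma 3.58.1 in R 4.3.3 (lmFit, eBayes; 2 residual and 2.76 prior degrees of freedom), two-sided, with no filter. The fit was run on simulated arrays with known changes and noise drawn from its own prior. That run checks the code only and cannot vouch for the fit on the measured arrays. With 2 arrays per group the precision is limited, and an exact permutation test of 1 gene could not go below 1 in 3. The members and gene lists were chosen with earlier results of these data known. Named were the 10 members, the 4 oleate regulators, DCI1, TES1 and up to 4 genes of each other related list with the largest absolute change. Also named were the 5 profiles nearest to POT1 and the deleted genes. CTT1, STE3, IME2, SPS1, MF(ALPHA)1, MF(ALPHA)2 and SAG1 were added after their values were seen. The 14 alternatives covered the variance model, normalization, filters, features, a 5'/3' covariate, a replicate block, each array left out and a minimum change.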

Additional observations from a re-analysis of the deposited data

How the results depend on the processing

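Of 140 values (10 genes under 14 alternatives), 118 kept direction and side of the threshold, 15 lost the call, 2 gained it and 5 changed sign. All 5 sign changes were of genes that did not pass: POX1 was at 0.02 with the 5'/3' covariate and at 0.02 without honokiol replicate 2, FOX2 at -0.02 without honokiol replicate 1 (-0.02 to 0.03 over the left-out arrays), and PXA1 at 0.05 with the covariate and 0.01 without ethanol replicate 2 (-0.14 to 0.01). Among related genes, DCI1 was at 0.00 after the renewed quantile normalization, -0.18 with the covariate and -0.01 without ethanol replicate 2 (-0.01 to 0.51), and YAT2 at -0.03 after that normalization. The number of the 10 genes that rose was 1 with all probe sets as features and 1 with the covariate, and 0 to 2 when 1 array was left out; the number that fell was 2 to 4 when 1 array was left out and 6 after the renewed quantile normalization, where POX1 and FAA2 also passed. Against a minimum log2 change of 0.5, 0 rose and 1 (POT1) fell. The renewed quantile normalization gave 1252 higher and 1539 lower over all genes, and the 5'/3' covariate 931 and 936. That normalization moved dim named genes the same way, toward lower values with honokiol. POX1 went from -0.08 to -0.53, POT1 from -1.19 to -1.55, CTA1 from 0.89 to 0.45 and CRC1 from 0.96 to 0.74. Bright genes moved little, such as CIT2 (1.48 to 1.49) and FAA1 (-0.76 to -0.75). The size of a change in a dim gene thus depends on the normalization. The fit reported gave 1302 higher and 1361 lower. Over all genes, leaving out 1 array gave 439 to 1634 higher and 264 to 1556 lower, the minimum change 223 and 80, and all probe sets as features 889 lower. The low ends came from leaving out a honokiol array (439 or 441 higher), against 1634 or 1236 higher without an ethanol array; the cause was not tested. With the replicate number as a block, 2 of the 10 genes rose and 4 fell, and over all genes 1414 rose and 1395 fell; replicate differences of both groups correlated at 0.325 over genes, but only the number links these arrays. POT1 and SPS19 alone of the 6 called genes passed under all 13 alternatives against 0, as did 7 of 25 called related genes (FAA4, IDP3, FAA1, CIT2, PEX21, OLE1 and FAS2). Of those 25, 6 lost the call with the covariate (OAF1, OAF3, REG1, PEX14, PEX29 and ACC1) and 5 with all probe sets as features (the same genes but PEX29). The share of all called genes that passed under all 13 alternatives against 0 was not counted, so these counts do not set the named genes apart. The 2 arrays per group limit all of these values.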

Other observations

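Among the 10 genes, the gap between replicate arrays had the same sign in both groups for CTA1, PEX11, POT1, ECI1 and PXA2. The share of all genes for which both signs agree was not counted. For CTA1, replicate 1 lay 0.68 above replicate 2 with ethanol and 0.32 above it with honokiol, and for PEX11 the gap was 0.23 in each group. ECI1 had gaps of 0.08 with ethanol and 0.12 with honokiol, PXA2 gaps of -0.05 and -0.18, and DCI1, no member of the 10, gaps of 0.52 and 0.23. POT1 had gaps of 0.03 with ethanol and 0.26 with honokiol. Gaps of opposite sign were seen for POX1 (-0.15 and 0.20), SPS19 (-0.11 and 0.10) and FAA2 (-0.05 and 0.14). FOX2 had gaps of -0.00 with ethanol and 0.05 with honokiol, and PXA1 gaps of -0.14 and 0.00. Over all genes the SD of this gap was 0.209 for ethanol and 0.121 for honokiol.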
